A study of Mus musculus with 67 samples.

Results

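The cytosolic ribosomal protein genes are described here from bulk RNA-seq of organoids and crypts of the mouse small intestine. They were chosen by name (Rpl or Rps followed by a number and at most one of the letters a, x or l, plus Rpsa, Rplp0, Rplp1 and Rplp2), by a mean of at least 10 TPM (read abundance per transcript length, scaled to a fixed total in each library) over all libraries, and with Rps27l left out. Of 29579 genes listed, 80 had such a name and 76 were kept, 46 of the large and 30 of the small ribosomal subunit. The mean TPM over all libraries chose the members and is a description only. The 3 lowest members were Rps15a at 483 TPM, Rpl39 at 505 TPM and Rps13 at 535 TPM, and the rows just outside the minimum were Rpl3l at 0.046 TPM, Rpl39l at 0.028 TPM and Rpl10l at 0 TPM, so that no gene lay near it. Rps27l, left out by name, had a mean of 635 TPM.

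A ribosome is built from a small subunit, which reads the mRNA, and a large subunit, which joins the amino acids, and each holds ribosomal RNA and about as many different proteins as there are genes of its group here. These proteins are made in nearly equal numbers, and their mRNAs are among the most abundant in dividing cells. Most of these mRNAs start with a run of pyrimidines, the TOP (terminal oligopyrimidine) element, through which mTOR and the protein Larp1 set how strongly they are translated, and Myc raises the transcription of many ribosomal protein and ribosome assembly genes. The crypt of the small intestine holds the stem and dividing cells that renew the epithelium, and ionising radiation stops their division and kills many of them before the survivors rebuild the crypt.

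The series held 67 libraries. Organoids in 10 media gave 49 of them, and crypts, in 9 groups, gave 18. Organoids were grown from crypts of the proximal small intestine of mice aged 6 to 12 weeks. ENR medium (7 libraries) held EGF (50 ng/mL), noggin (100 ng/mL) and R-Spondin 1 (500 ng/mL). The 8C medium (7 libraries) held VPA (valproic acid, a histone deacetylase inhibitor, 500 µM), EPZ6438 (an EZH2 inhibitor, 2 µM), LDN193189 (0.2 µM), GSK3iXV (0.1 µM), Pexmetinib (1 µM), EGF (50 ng/mL), bFGF (20 ng/mL) and R-Spondin 1 conditioned medium (10%). The medium 8C -VE (7 libraries) lacked both VPA and EPZ6438, 8C -V (6 libraries) lacked VPA and 8C -E (7 libraries) lacked EPZ6438. The media 8C -GSK3i, 8C -Pex, 8C -bFGF and 8C -EGF (3 libraries each) lacked the one component named, and ENR +VE (3 libraries) was ENR with VPA and EPZ6438, at doses not given in the sources used here. Crypts came from 8-week-old female C57BL/6 mice. The Normal group was not irradiated, the groups IR day 1, 2, 3 and 5 had received 12 Gy, and the matching +VE groups were in addition given VPA at 40 mg/kg a day, together with EPZ6438 at 0.6 mg/kg, by gavage, with 2 libraries in each of these 9 groups. The study's legends count mice as replicates for some of these groups, but the labels number the libraries and tie none to an animal or a culture, so every p-value below measures the spread between these libraries, and how much of it is between animals is not known.

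The defining epithelial marker genes were present in every library, with a summed level of 7110 to 14105 TPM in organoids and 4017 to 9192 TPM in crypts. These sums do not measure RNA quality. TPM keeps no sequencing depth, so the counting precision behind each value is unknown. No test was made between organoid and crypt libraries, and their levels are set side by side only as a description. The listed genes of the crypt libraries did not sum to the same total as those of the organoids. The relative levels of single members also differed widely between the sets, as given below. Among crypts the listed total was 877315 and 877229 TPM in Normal, 819346 and 843367 TPM at IR day 3 and 908241 and 910935 TPM at IR day 5. The deposited TPM was not rescaled for this, so crypt fold changes carry that difference. Ribosomal protein genes have many processed pseudogenes, whose near-identical sequence can take or remove reads, and the library kit does not mark strand, so the level of a single member is uncertain in a way its replicate spread does not show.

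The sequence around the transcription start is shown for the 4 members with the longest pyrimidine runs, and for some of the members that the results below turn on. Of the 76 members, 56 had an entry in the RefSeq promoter table (build GRCm38.p6). The windows hold 15 bases before and 15 after the annotated start, on the coding strand, and capitals mark the longest run of at least 8 bases of C and T. The longest runs were those of Rpl7a, at chr2:26910792-26910821 (plus strand), Rpl27a, at chr7:109519180-109519209 (plus), Rpl35, at chr2:39005117-39005146 (minus), and Rpl34, at one of its annotated starts at chr3:130730323-130730352 (minus). Of the members named below, Rpl4, at chr9:64173372-64173401 (plus), Rpl38, at chr11:114668565-114668594 (plus), and Rpl13a, at chr7:45128731-45128760 (minus), held a shorter run. Rpl12, at chr2:32961697-32961726 (plus), Rpl22, at one of its annotated starts at chr4:152324421-152324450 (plus), and Rpl10, at chrX:74270801-74270830 (plus), held none.
Rpl7a: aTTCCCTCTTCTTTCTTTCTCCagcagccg
Rpl27a: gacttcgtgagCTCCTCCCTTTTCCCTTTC
Rpl35: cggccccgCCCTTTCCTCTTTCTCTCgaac
Rpl34: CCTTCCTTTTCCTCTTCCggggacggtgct
Rpl4: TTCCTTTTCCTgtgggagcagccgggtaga
Rpl38: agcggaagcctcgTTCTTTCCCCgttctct
Rpl13a: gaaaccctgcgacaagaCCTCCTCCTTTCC
Rpl12: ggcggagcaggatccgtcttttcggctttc
Rpl22: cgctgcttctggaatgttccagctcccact
Rpl10: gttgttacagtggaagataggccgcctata

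A run of at least 8 pyrimidines lay in the window of 25 of 56 members (44.6%), against 3760 of 27025 genes (13.9%) over the whole promoter table. It lay in 9 of 69 genes of mitochondrial ribosomal proteins (13.0%), which build the separate ribosome of the mitochondrion, and in 6 of 17 genes of translation factors and other TOP mRNAs (35.3%). The motif ACTTCC, searched on both strands from 250 bases before to 50 after the start, was in 29 of 56 members (51.8%), 26.5% of all promoters, 31.9% of those of mitochondrial ribosomal proteins and 41.2% of those of the translation factors. These are matches of letters, and a window without a run says only that none lies within 15 bases of this annotated start.

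In organoids the median member had a mean of 1204 TPM, and 21 of the 50 genes of highest mean level were members. The 5 highest were Rplp1 (5820 TPM) and Rplp0 (5570 TPM), the stalk proteins that recruit translation factors to the large subunit, Rpl17 (4015 TPM), Rps15 (3861 TPM) and Rpl4 (3547 TPM), a protein of the peptide exit tunnel. The 5 lowest were Rpl13a (86.1 TPM), Rps15a (265 TPM), Rpl35a (323 TPM), Rps28 (407 TPM) and Rpl30 (419 TPM). The highest member lay 67.6-fold above the lowest, and the 5 highest members held 19.6% of the summed TPM of all members. Median levels of the 2 subunits were close, at 1185 TPM for the large and 1251 TPM for the small subunit.

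In crypts the median member had 1363 TPM, and 13 of the top 50 genes were members. The highest were Rpl13a (7012 TPM), Rpl41 (4383 TPM), the shortest ribosomal protein, Rplp1 (4089 TPM), Rps14 (3732 TPM) and Rps24 (3137 TPM). The lowest were Rpl5 (25.1 TPM), which binds the smallest ribosomal RNA of the large subunit and, when free, the p53 regulator Mdm2, Rpl12 (53.9 TPM), a protein at the base of the stalk, Rps23 (350 TPM), Rpl21 (433 TPM) and Rpl27a (477 TPM). The range was wider than in organoids, with a highest-to-lowest ratio of 279.

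**Figure D1:**
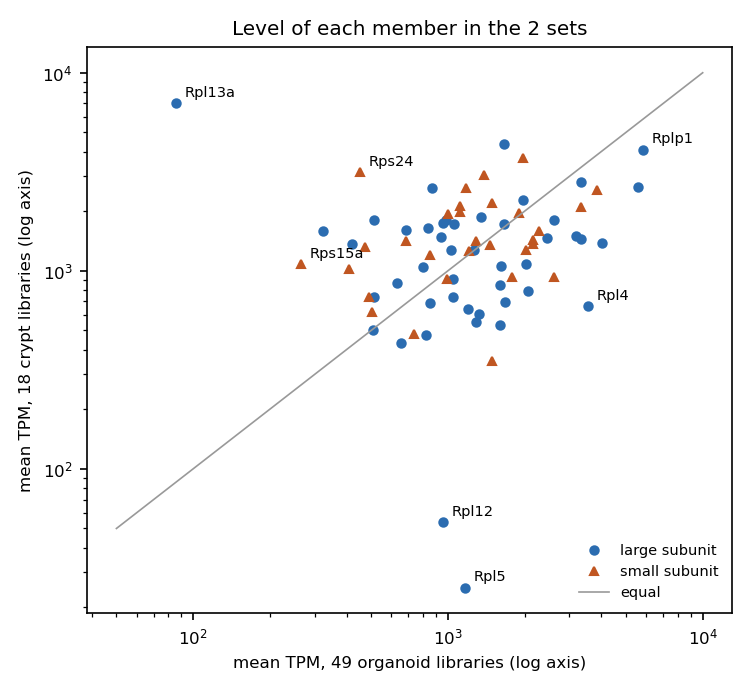
Mean TPM of each of the 76 members in organoids (49 libraries, horizontal axis) and in crypts (18 libraries, vertical axis), both on log axes, with large and small subunit members in separate colours. Rpl13a lies far above, and Rpl5 and Rpl12 far below, the bulk of the members.

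The order of members differed between the sets (Spearman's rho 0.229 across 76 members, a description across genes that share libraries). Rpl13a stood at 86.1 TPM in organoids and 7012 TPM in crypts, 81.5 times as high, and Rps24 was 6.94 times as high in crypts. Rpl5 stood at 1171 TPM in organoids and 25.1 TPM in crypts, and Rpl12 at 957 and 53.9 TPM. In all, 14 members were more than 2-fold higher and 14 were under 0.5 of their organoid level in crypts. Tissue and processing cannot be told apart here, so comparisons between conditions are made within a set only.

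Members varied together. In organoids the log2 level of a member followed the median of the family across 49 libraries with a median Pearson correlation of 0.926, over 0.9 for 51 of 76 members, and in crypts across 18 libraries with a median of 0.960, over 0.9 for 67. These correlations describe libraries that share one scaling to a total. Rpl32 in organoids (0.984) and Rpl13 in crypts (0.993) followed most closely. The least close in organoids were Rpl13a (0.303), Rps2 (0.564) and Rps29 (0.723), and in crypts Rps27 (0.578), Rpl12 (0.657), Rpl4 (0.752) and Rpl10 (0.775).

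Most of the spread between libraries of one group was shared by the family. The median within-group SD of a member was 0.192 log2 units in organoids and 0.269 in crypts, and it dropped to 0.0677 and 0.0888 when each library was first centred on the median of its members. Over all genes tested the within-group SD was 0.268 and 0.270, and over genes at least as high as the lowest member it was 0.201 and 0.236. Rps27, a small subunit protein, was an exception in crypts, with an SD of 0.614 around the family. Its TPM in the 2 libraries of a group was 884 and 347 in Normal, 350 and 173 at IR day 2 and 166 and 344 at IR day 2 +VE, but 479 and 467 at IR day 1 and 609 and 623 at IR day 5.

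The members held 8.43 to 15.6% of the listed TPM of an organoid library. ENR libraries ranged from 8.43 to 13.7% (median 11.3%; mean 11.2% ± 2.17 (SD, n = 7)), and 8C libraries from 10.2 to 14.2% (median 11.8%; mean 11.9% ± 1.18 (SD, n = 7)). The ranges overlapped, with 3 of 7 ENR libraries below every 8C library. The media without the inhibitors covered 9.80 to 15.6% (median 11.9%) for 8C -VE, 9.98 to 13.8% (median 12.4%) for 8C -E and 10.0 to 15.5% (median 13.1%) for 8C -V.

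Media with 3 libraries each lay within these ranges. The share was 9.59 to 11.9% in ENR +VE, at most 12.7% (median 12.1%) in 8C -EGF, 11.1 to 11.4% in 8C -GSK3i, 11.3 to 12.8% in 8C -Pex and 11.1 to 12.3% in 8C -bFGF. The summed TPM of large over small subunit members was 1.67 to 1.83 in every organoid library. Mitochondrially encoded transcripts took 1.52 to 6.64% of the listed TPM, with a Spearman correlation to the members' share of -0.439 (Pearson -0.202, n = 49, a description of shares of one total). They took 4.69 to 6.64% in replicate 7 of ENR, 8C -VE, 8C -E and 8C, and at most 3.81% in every other organoid library.

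**Figure D2:**
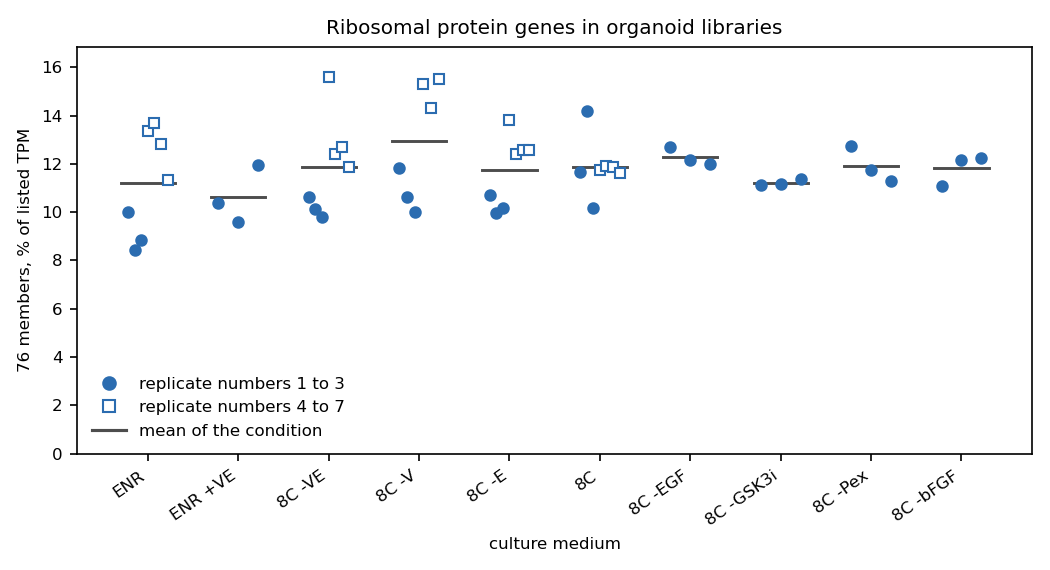
Share of the listed TPM held by the 76 members (vertical axis, percent) in each organoid library by culture condition, with replicate numbers 1 to 3 and 4 or above marked apart and a line at the mean of the condition. In ENR, 8C -VE, 8C -V and 8C -E the libraries numbered 4 or above lie above those numbered 1 to 3, and in 8C they do not.

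Libraries of one condition split by replicate number. In ENR the share was 8.43 to 9.99% in numbers 1 to 3 and 11.3 to 13.7% in numbers 4 or above, in 8C -VE 9.80 to 10.6% and 11.9 to 15.6%, in 8C -V 10.0 to 11.8% and 14.3 to 15.5%, and in 8C -E 9.98 to 10.7% and 12.4 to 13.8%. The 2 number ranges did not overlap in these 4 conditions. In 8C they did, at 10.2 to 14.2% and 11.6 to 11.9%. The labels name no batch, and comparisons are therefore given over all libraries and within the number ranges.

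Between 8C and ENR few ribosomal protein genes differed over all libraries in the deposited TPM. In all 1 member was called (limma on log2(TPM + 1), adjusted p under 0.05), Rpl22, which was higher in 8C, where 25.4% of 12665 genes tested were called higher and 9.7% lower. Of the members, 70 were on the higher and 6 on the lower side, with a median log2 fold change of 0.12 against 0.08 over all genes and a range of -0.06 to 0.34. The median standard error was 0.125, so that differences of this size were within the spread between libraries. After quantile normalization 22 members were higher in 8C, beside 20.4% of all genes. Cell markers moved in the same comparison, and their part in it was not tested: 7 of 8 Paneth markers (12655 to 15574 TPM summed in ENR, 1174 to 4784 TPM in 8C) and 8 of 9 enterocyte markers were lower in 8C, and none of either list was higher, beside 9.7% of all genes called lower. Stem cell markers summed to 2104 to 3669 TPM in ENR and 591 to 1676 TPM in 8C, with 3 of 6 called higher and 1 lower. Stromal, muscle and vessel markers summed to 0.323 to 0.762 TPM and 1.25 to 5.29 TPM, with none high enough to be tested, and 0 of 12 proliferation markers were called.

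Rpl22 is an RNA-binding protein of the large subunit that cells can do without, since its paralogue Rpl22l1 can take its place. It stood at 393, 327, 343, 501, 477, 465 and 491 TPM in the ENR libraries 1 to 7 in the order of their numbers, and at 488, 581, 469, 554, 553, 527 and 582 TPM in the 8C libraries. The groups overlapped, with 4 ENR libraries lower than all of 8C. The means were 428 ± 72.8 TPM and 536 ± 44.2 TPM (SD, n = 7 each), a log2 fold change of 0.34 with a standard error of 0.11 (adjusted p 0.0223). Without replicate 2 of both media the call was lost (log2 fold change 0.26), as it was relative to the family (0.22, adjusted p 0.102). Rpl22l1 had a log2 fold change of -0.06 (adjusted p 0.749).

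The members named for their roles moved by less in 8C against ENR, and none of them was called. In the small subunit, Rpsa, the laminin receptor protein, had a log2 fold change of 0.21, Rps6, the target of S6 kinase, 0.08, Rps19, the gene most often mutated in Diamond-Blackfan anaemia, 0.24, Rps14 0.14, Rps27a, which is made as a fusion with ubiquitin, 0.15, Rps4x, encoded on the X chromosome, 0.01, and Rps3, at the mRNA entry site, 0.03. In the large subunit, the stalk genes Rplp0, Rplp1 and Rplp2 had -0.01, -0.02 and 0.20, the Mdm2-binding Rpl5 and Rpl11 0.14 and 0.13, and Rpl3, next to the peptidyl transferase centre, 0.14. Rpl10, among the last proteins to join the large subunit, had 0.09, Rpl38, known for its part in the translation of Hox mRNAs, 0.25, Rpl39 and Rpl41, both very short proteins, 0.12 and 0.11, and Rpl13a, which can leave the ribosome to repress inflammatory mRNAs, 0.32 with a standard error of 0.15 (adjusted p 0.12).

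Within the number ranges the sign of the family's difference turned. With numbers 1 to 3 only, 18 members were higher in 8C than in ENR (22.8% of all genes called higher) with a median of 0.40, and with numbers 4 to 6 only, 33 members were lower (12.9% of all genes called lower) with a median of -0.16. A share of 18 of 76 members is near the background of its comparison, and 33 of 76 is above it. The pooled median of 0.12 combines medians of opposite sign.

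The 8C -VE medium compares the base of 8C, without VPA and EPZ6438, with ENR. Here limma called 0 members, with 0 at an unadjusted p under 0.05, where 5.85% of 11990 genes were called higher and 3.49% lower. The median was 0.10 against 0.08 over all genes, with 75 members on the higher side. Same-numbered libraries of these conditions deviated together, and with the replicate number as a block 2 members were higher, beside 12.7% of all genes. With numbers 1 to 3 only, 19 members were higher (27.3% of all genes called higher).

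Removing VPA, EPZ6438 or both from 8C left the family near its 8C level over all libraries. These comparisons share the 8C libraries. Against 8C, 8C -VE had 0 members called by limma (0 at an unadjusted p under 0.05), with 6.27% of 12622 genes higher and 17.2% lower, and a median over members of -0.02. In 8C -V 0 were called (1 at an unadjusted p under 0.05), with 2.92% of 12723 genes higher and 9.17% lower, and a median of 0.11 against -0.05 over all genes. In 8C -E 0 were called (0 at an unadjusted p under 0.05), with 0.664% of 12655 genes higher and 6.11% lower, and a median of -0.02.

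Here too the libraries numbered 4 to 6 differed from those numbered 1 to 3. In 8C -V against 8C, 68 of 76 members were higher in numbers 4 to 6, well above the 10.2% of all genes called higher, with a median of 0.35, and 0 were called in numbers 1 to 3, where the median was -0.13. In 8C -VE against 8C, 8 members were higher in numbers 4 to 6, near the 9.55% of all genes called higher, with a median of 0.18, and 1 was lower in numbers 1 to 3, beside 16.4% of all genes, with a median of -0.22. In 8C -E against 8C the median was -0.21 in numbers 1 to 3 and 0.13 in numbers 4 to 6, with 0 called in both. The 8C libraries were those whose 2 number ranges overlapped. Paneth markers did not overlap in 8C -V and 8C -VE against 8C, at 7172 to 9900 TPM summed in 8C -V and 9899 to 15931 TPM in 8C -VE against 1174 to 4784 TPM in 8C, with 8 of 8 called higher over all libraries in each. In 8C -E they overlapped with 8C, at 3848 to 8701 TPM, with 2 of 8 called higher. The part of these markers in the results was not tested.

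Removing one of the remaining components was tested over 3 against 7 libraries, where few genes of any kind were called, so that 0 members called does not set the family apart. Without GSK3i limma called 0 members, 2 at an unadjusted p under 0.05, and 0% of 12806 genes either higher or lower, with a median over members of -0.09. Without Pexmetinib it called 0 (1 unadjusted), beside 0.35% of 12860 genes higher and 0.241% lower, with a median of -0.01. Rpl13a was at 62.7, 71.7 and 77.0 TPM without Pexmetinib and at 80.1 to 139 TPM (median 87.5 TPM) in 8C, without overlap (log2 fold change -0.50, standard error 0.18, adjusted p 0.27). Without bFGF limma called 0 (1 unadjusted), beside 0% of 12834 genes higher and 0.00779% lower, with a median of -0.00, and without EGF 0 (0 unadjusted), beside 0.288% of 12849 genes higher and 0.226% lower, with a median of 0.04.

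Adding VPA and EPZ6438 to ENR also left the members uncalled by limma, 0 of 76 with 0 at an unadjusted p under 0.05, where 17.3% of 12324 genes were higher and 3.41% lower. The median was -0.04 over members and 0.09 over all genes. The ENR +VE libraries are numbered 1 to 3 only. Over all ENR libraries, or against ENR numbers 4 to 6, treatment and replicate number therefore cannot be told apart. The result again turned with the ENR libraries used. Against ENR numbers 1 to 3, 9 members were higher (22.8% of all genes called higher), with a median of 0.23, and against ENR numbers 4 to 6, 60 members were lower (9.54% of all genes called lower), with a median of -0.31. Paneth markers summed to 4956 to 5278 TPM in ENR +VE against 12655 to 15574 TPM in ENR, with 7 of 8 called lower over all libraries, and stromal, muscle and vessel markers to 2.20 to 3.63 against 0.323 to 0.762 TPM, and their part in the result was not tested.

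**Figure D3:**
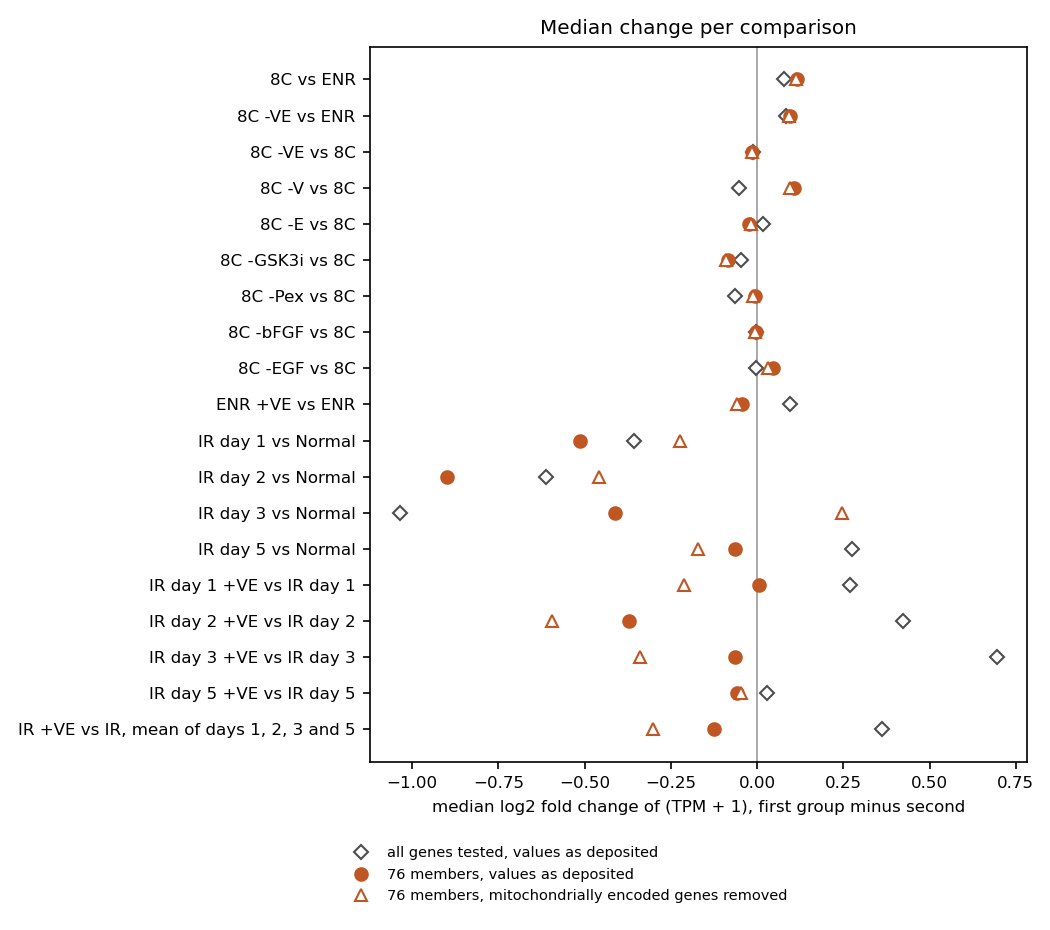
Median log2 fold change over the 76 members (log2(TPM + 1) scale) and over all genes tested for each comparison, and over the members with the mitochondrially encoded genes removed. In the deposited values, organoid medians lie within 0.12 of 0, and the crypt medians at IR day 1, 2 and 3 against Normal lie between -0.41 and -0.90.

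In crypts the family's share was lowest on day 2 after irradiation. The members held 17.3 and 18.4% of the listed TPM in the 2 Normal libraries, 11.1 and 13.9% at IR day 1, 7.80 and 12.3% at IR day 2, 12.6 and 15.6% at IR day 3 and 16.1 and 16.7% at IR day 5. All libraries of irradiated crypts lay below both Normal libraries. In the +VE groups the share was 10.9 and 13.8% at day 1, 7.19 and 7.50% at day 2, 10.1 and 15.8% at day 3 and 14.6 and 16.5% at day 5. Treated and untreated libraries overlapped on days 1, 3 and 5, and on day 2 both treated libraries lay below both untreated ones. The highest summed TPM of the members in a crypt library was 2.55 times the lowest, against 1.85 times in organoids. In bulk RNA, fewer cells of a type and less RNA per cell cannot be told apart.

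**Figure D4:**
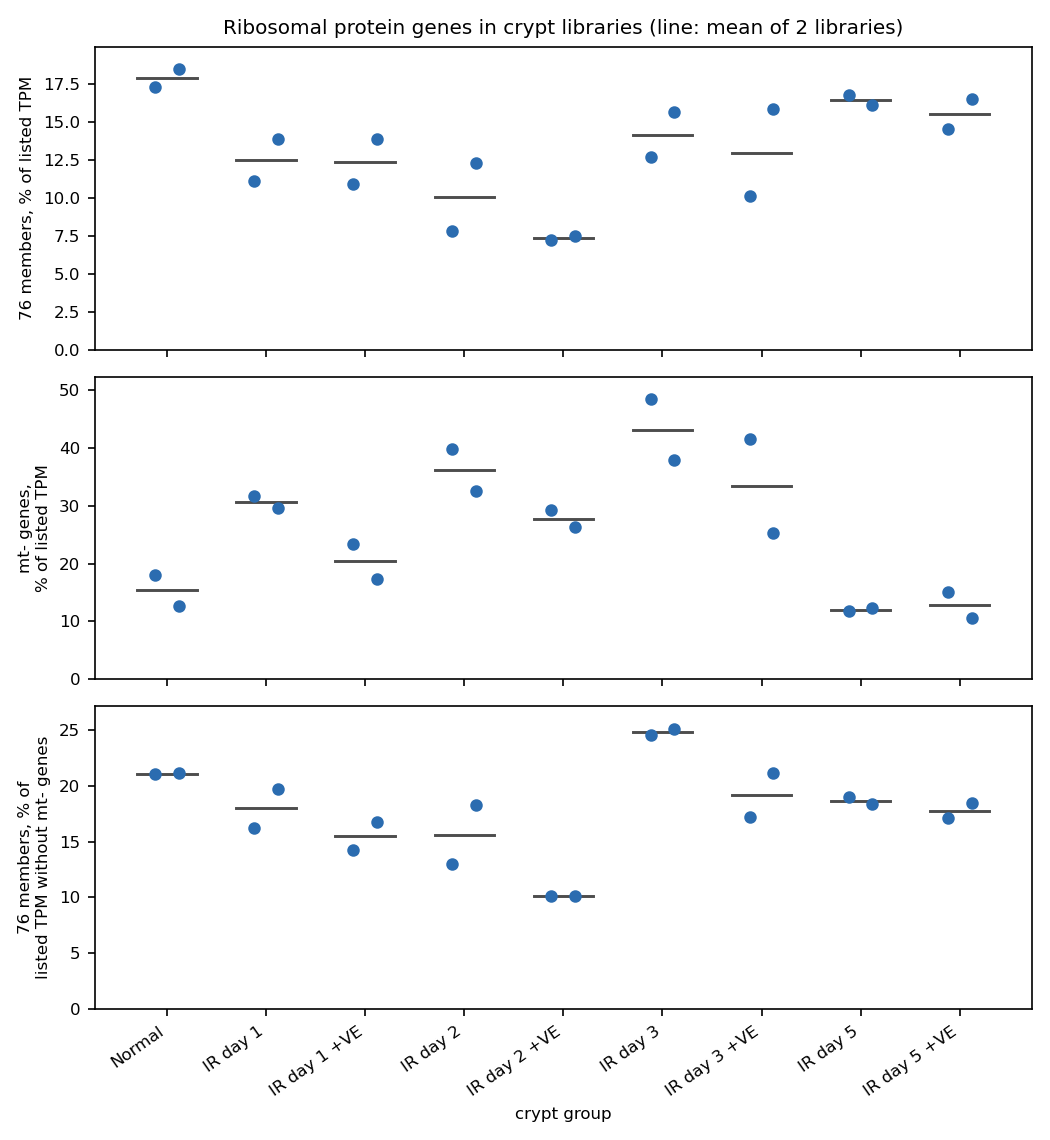
Percent of the listed TPM held by the 76 members (vertical axes) in each crypt library, for Normal crypts and for days 1, 2, 3 and 5 after 12 Gy with and without VPA and EPZ6438, in the top panel with all listed genes counted and in the bottom panel without the mitochondrially encoded (mt-) genes, whose own share is in the middle panel, with a line at the mean of 2 libraries. The share in the top panel is lowest at day 2 and reaches 14.6 to 16.7% at day 5, below the 17.3 and 18.4% of Normal crypts.

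The share of mitochondrially encoded transcripts moved as well, above Normal at IR days 1 to 3, where that of the family was below it. They took 12.7 and 18.1% of the listed TPM in Normal crypts, 29.7 and 31.8% at IR day 1, 32.6 and 39.9% at day 2, 37.9 and 48.4% at day 3 and 11.8 and 12.3% at day 5. In the +VE groups they took 17.4 and 23.4% at day 1, 26.3 and 29.2% at day 2, 25.4 and 41.5% at day 3 and 10.6 and 15.1% at day 5. Across 18 libraries the correlation with the members' share was -0.586 (Pearson) and -0.643 (Spearman), a description of shares of one total. With these transcripts left out, the members held 21.1% in both Normal libraries, 16.2 and 19.7% at IR day 1, 13.0 and 18.3% at day 2, 24.5 and 25.1% at day 3 and 18.3 and 19.0% at day 5. On that scale the day 3 libraries lay above Normal, and those of days 1, 2 and 5 below it. In the +VE groups it was 14.2 and 16.8% at day 1, 10.2% in both libraries at day 2, 17.2 and 21.2% at day 3 and 17.1 and 18.5% at day 5. Treated and untreated libraries then overlapped on days 1 and 5, and on days 2 and 3 both treated ones lay below both untreated ones.

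Markers of other cells moved as well, and their part in the results was not tested. Over all genes tested 46% were lower and 6.9% higher at IR day 2, and 70.5% lower at day 3. From Normal to IR day 2, 12 of 12 proliferation markers fell, with summed levels of 429 to 545 TPM in Normal and 124 to 149 TPM at day 2, as did 4 of 5 stem cell markers tested, from 233 to 437 down to 20 to 21 TPM. Of 9 enterocyte markers 4 rose at day 2, with sums of 6716 to 12784 TPM in Normal and 29402 to 36743 TPM at day 2, and 7 fell at day 3, to 2083 to 7228 TPM. Of 8 Paneth markers 5 fell at day 2. Immune markers summed to 138 to 220 TPM in Normal, 27 to 74 TPM on days 1 to 3 after irradiation and 5.67 to 8.16 TPM on day 5, with and without treatment. Erythroid markers summed to 15 to 106 TPM in Normal and 0 to 8 TPM elsewhere, and stromal, muscle and vessel markers to 3 to 24 TPM.

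At IR day 1 all 76 members were below Normal, with a median of -0.51 against -0.36 over all genes, but 1 of them was called lower, Rpl12, where limma called 10.7% of 10802 genes lower and 2.1% higher. At an unadjusted p under 0.05 there were 29 members, a share near the 32.9% of all genes. Rpl12 was at 54.6 and 30.7 TPM in IR day 1 and at 76.9 and 98.0 TPM in Normal, without overlap (log2 fold change -1.06, standard error 0.28, adjusted p 0.0241). Without IR day 1 replicate 2 (-0.66) or Normal replicate 2 (-0.89) it was no longer called. The call also ended with no minimum TPM (-1.06), without the mitochondrially encoded genes (-0.78) and after removal of a trend with exon length (-0.72). It ended as well after quantile normalization (-0.64) and with scaling to the median member (-0.56). Exon length is that of all annotated exons of a gene combined, which can exceed the length of its mRNA. After quantile normalization 4 other members were lower, beside 2.86% of all genes.

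At IR day 2 the fall was largest, and 69 of 76 members were called lower, where 46% of all genes were called lower and 6.9% higher. All members lay below Normal, by a log2 fold change of -1.93 to -0.42, with a median of -0.90 against -0.61 over all genes. The members' median lay below that of all genes tested by 0.19 to 0.48 log2 units. This held in the deposited TPM, after quantile normalization, without the mitochondrial transcripts and after the trend with exon length was removed. Called were 40 of 46 large and 29 of 30 small subunit genes. After the length trend was removed 7 members were called lower, beside 17.2% of all genes, with a median of -0.28. The count of 69 also rested on single libraries: without IR day 2 replicate 1 it was 12, beside 33.6% of all genes, and without Normal replicate 2 it was 29, beside 24% of all genes. With the mitochondrially encoded genes removed, 31 members were lower, beside 20.9% of all genes, with a median of -0.46.

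Rpl12 fell most, from 76.9 and 98.0 TPM in Normal to 19.1 and 25.4 TPM at IR day 2 (log2 fold change -1.93, standard error 0.28, adjusted p 0.0001). Rpl3, of the peptidyl transferase centre, had 1011 and 1323 TPM in Normal and 353 and 485 TPM at day 2 (-1.48, standard error 0.25, adjusted p 0.0004). Rpl17, of the exit tunnel, came next at -1.31 (adjusted p 0.0023), from a mean of 2207 TPM to 907 TPM. None of these 3 genes overlapped between the groups.

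Of the members named for their roles, those with the larger falls at day 2 were Rpl11 (-1.16), Rps14 (-1.15), Rpl13a (-1.05) and Rpl5 (-1.04). Rps3 (-0.92), Rpl41 (-0.89), Rplp2 (-0.89), Rps19 (-0.88), Rpsa (-0.83), Rpl22 (-0.83), Rps6 (-0.81) and Rps4x (-0.80) fell close to the family median. Rps27a (-0.71), Rpl39 (-0.64) and Rpl10 (-0.59, adjusted p 0.048) fell by less. The 7 members not called included the stalk genes Rplp0 (-0.49, adjusted p 0.16) and Rplp1 (-0.42, adjusted p 0.19), and Rpl38 (-0.54, adjusted p 0.073), and the others were Rps12, Rpl19, Rpl24 and Rpl7. Rplp1 was at 4178 and 4799 TPM in Normal and at 2658 and 4205 TPM at day 2, and the higher of the day 2 libraries reached the lower Normal one.

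With each library scaled to the median of its members, which asks which genes moved apart from the family, 4 members were called at day 2, 2 of them higher (beside 17.3% of all genes) and 2 lower (beside 3.91%). Rpl12 fell by 1.03 (adjusted p 0.0099) and Rpl3 by 0.58 (adjusted p 0.0055), whereas Rplp1 rose by 0.47 (adjusted p 0.0112) and Rpl38 by 0.36 (adjusted p 0.0457). Both of the latter were lower than Normal in TPM, and a rise on this scale says only that they fell by less than the median member.

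At IR day 3 fewer members were lower while most other genes were lower. Limma called 20 of 76 members lower, where 70.5% of all genes were lower and 3.93% higher, so that the members' share was below the background. Their median was -0.41 against -1.03 over all genes. Relative to all genes the members were 0.62 higher in the deposited TPM, 0.81 higher without mitochondrial transcripts, 0.45 higher after removal of the length trend and 0.08 higher after quantile normalization, which brings the medians of all genes together. Without the mitochondrially encoded genes, 12 members were higher than Normal (beside 9.3% of all genes) and 4 lower (beside 43.4%), with a median of 0.25. After the length trend was removed 26 were higher (beside 22.3%) and 0 lower (beside 23.5%), with a median of 0.46. The direction against Normal thus turned under each of these alternatives. The count of 20 was 6 without IR day 3 replicate 1 (beside 56.3% of all genes) and 8 without Normal replicate 2 (beside 57.7%).

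The largest falls at day 3 were those of Rpl12, at 25.1 and 33.6 TPM (-1.55, adjusted p 0.0002), Rpl4, from 747 and 898 TPM in Normal to 285 and 454 TPM (-1.18, adjusted p 0.0004), and Rpl3, at 442 and 616 TPM (-1.15, adjusted p 0.0008). Rps29, a small zinc-binding protein, fell by 1.09. The day 3 libraries of Rpl12, Rpl4 and Rpl3 lay below both Normal ones. Relative to the family Rpl12 (-1.07), Rpl4 (-0.71) and Rpl3 (-0.67) fell, while Rplp1 (0.60, adjusted p 0.002), Rps12 (0.55, adjusted p 0.0019) and Rplp0 (0.49, adjusted p 0.0146) rose. In TPM these last 3 had log2 fold changes of 0.13, 0.08 and 0.02 and were not called.

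At IR day 5, 1 of 76 members differed from Normal by this test. Rpl10 was called higher, where 19.7% of all genes were higher and 7.46% lower, and the median over members was -0.06 against 0.27 over all genes. Of 8 immune markers tested 6 were lower in the same comparison. Rpl10 was at 1344 and 1308 TPM at day 5 and at 679 and 987 TPM in Normal (log2 fold change 0.70, standard error 0.24, adjusted p 0.0409), without overlap, and without either IR day 5 library, or without Normal replicate 1, the call was lost. Relative to the family Rpl10 (0.76, adjusted p 0.0091), Rplp0 (0.56, adjusted p 0.0156) and Rps2 (0.48, adjusted p 0.0222) rose and Rps7 fell by 0.49 (adjusted p 0.0228).

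**Figure D5:**
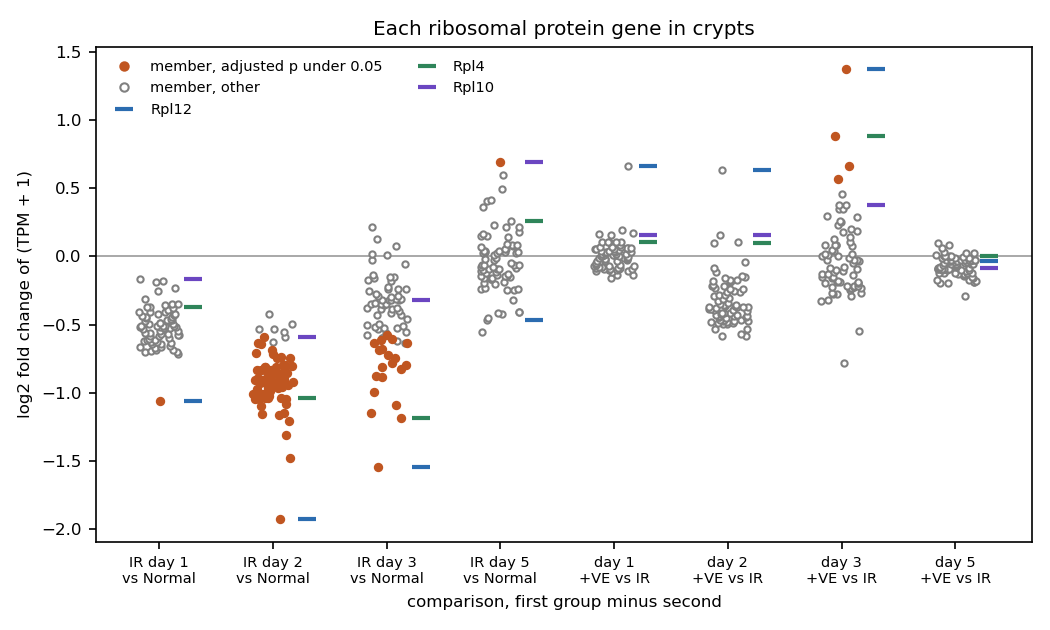
Log2 fold change of (TPM + 1) of each of the 76 members in the 8 crypt comparisons (vertical axis), filled where the adjusted p was under 0.05, with dashes beside each column at Rpl12, Rpl4 and Rpl10. Rpl12 lies at -1.93 at IR day 2 against Normal and at 1.37 at day 3 +VE against IR day 3, at the edge of the family in both.

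The treated crypts were compared with untreated irradiated crypts of the same day to ask what VPA and EPZ6438 did. At day 1 limma called 0 members (1 at an unadjusted p under 0.05), beside 0.00926% of all genes higher and 0% lower, with a median of 0.01 against 0.27 over all genes. At day 2 it called 0 (3 unadjusted), beside 14.6% of all genes higher and 0.0648% lower. The median was -0.37 over members and 0.42 over all genes, with 72 members on the lower side. Enterocyte markers summed to 45613 to 49658 TPM at day 2 +VE and to 29402 to 36743 TPM at IR day 2, with 1 of 9 called higher. At day 5 it called 0 (0 unadjusted), beside 0.0185% higher and 0% lower, with a median of -0.06 against 0.03.

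At day 3 +VE, where 52.3% of all genes were higher than in untreated crypts and 0.148% lower, 4 of 76 members were higher, a share far below the background. The count was 7 without IR day 3 +VE replicate 1 (beside 42% of all genes), and 1 without IR day 3 +VE replicate 2 (beside 36.5%) or without IR day 3 replicate 1 (beside 27.7%). The median over members was -0.06 against 0.69 over all genes. The difference between these medians was -0.76 in the deposited TPM, -0.90 without mitochondrial transcripts, -0.36 after removal of the length trend and -0.05 after quantile normalization. With the mitochondrially encoded genes removed 2 members were higher (beside 39.2% of all genes) and 14 lower (beside 1.34%), with a median of -0.34. The summed TPM of large over small subunit members was 1.37 and 1.38 at IR day 3, as in Normal, and 1.49 in the lower of the day 3 +VE libraries. It was 1.46 and 1.49 at day 2 +VE, and 1.38 to 1.45 in the libraries of days 1, 2 and 5 otherwise. Cell markers moved in the same comparison, and their part in it was not tested. Of 12 proliferation markers 8 were higher (238 to 429 TPM summed, against 166 to 261 TPM at IR day 3), as were 2 of 5 stem cell markers tested (35.5 to 50.4 against 15.7 to 18.9 TPM) and 6 of 7 epithelial markers (7754 to 8128 against 4017 to 6031 TPM). Paneth markers summed to 31534 to 44949 TPM against 14500 to 31340 TPM, with 0 of 8 called, and stromal, muscle and vessel markers to 8.92 to 23.6 against 4.90 to 5.77 TPM, with 0 of 1 tested called.

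The 4 members higher at day 3 +VE were all of the large subunit. Rpl12 was at 61.0 and 96.9 TPM against 25.1 and 33.6 TPM (log2 fold change 1.37, standard error 0.28, adjusted p 0.0013), and Rpl4 at 588 and 750 TPM against 285 and 454 TPM (0.88, standard error 0.23, adjusted p 0.0060). Rpl5 was at 22.6 and 38.0 TPM against 16.9 and 19.4 TPM (0.66, adjusted p 0.0496), and Rpl29, a small basic protein, had means of 1166 and 780 TPM (0.57, adjusted p 0.0369). For Rpl12, Rpl4 and Rpl5 the treated libraries lay above both untreated ones. After the trend with exon length was removed none of the 4 was called. On that scale 0 members were higher, beside 10.1% of all genes, and 20 lower, beside 7.55%. Rpl12 was at 0.62, Rpl4 at 0.42 and Rpl5 at -0.13. Relative to the family Rpl12 (1.41), Rpl4 (0.92) and Rpl5 (0.70) rose, and Rps14 fell by 0.51 (adjusted p 0.0308).

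Over the mean of the 4 within-day differences, 1 member was higher with treatment, Rpl12 (0.66, standard error 0.14, adjusted p 0.0018), where 54.8% of all genes were higher and 0.0926% lower. The median over members was -0.13 against 0.36. With the mitochondrially encoded genes removed, 54 members were lower, beside 1.77% of all genes. After quantile normalization 22 were lower, beside 6.42%, and after removal of the length trend 33 were lower, beside 3.79%, and 0 higher, beside 5.61%, with Rpl12 at 0.30 and no longer called. Relative to the family Rpl12 (0.77), Rpl4 (0.38) and Rpl5 (0.34) rose and Rplp1 fell by 0.16 (adjusted p 0.0322). The moderated F test of limma for a difference between days called 0 members, 1 at an unadjusted p under 0.05, beside 1.75% of all genes.

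Across the crypt libraries Rpl12 ranged from 19.1 TPM at IR day 2 to 98.0 TPM in Normal. Its remaining libraries were at 59.6 and 72.5 TPM (IR day 1 +VE), 36.4 and 33.2 TPM (IR day 2 +VE), 64.8 and 60.1 TPM (IR day 5) and 56.5 and 65.8 TPM (IR day 5 +VE). At day 2 +VE its rise was 0.64 in TPM (adjusted p 0.11) and 0.97 relative to the family (adjusted p 0.0481). Rpl12 is the second lowest member in crypts, so that its share of the family's TPM was small, and in organoids its level was 923 ± 169 TPM in ENR and 942 ± 113 TPM in 8C (SD, n = 7 each).

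Other genes of translation were counted from lists. Beside them stand the shares of all genes: at IR day 2 46% were lower, at day 3 70.5% lower, and at day 5 19.7% higher, while at day 2 +VE 14.6%, at day 3 +VE 52.3% and over the mean of days 54.8% were higher. At day 1 10.7% were lower and 2.1% higher. In organoids 25.4% were higher and 9.7% lower in 8C against ENR, 6.27% were higher in 8C -VE against 8C and 17.3% in ENR +VE against ENR. Of 8 ribosomal protein genes outside the naming rule, 0 passed in the organoid comparisons, 5 were lower at IR day 2, with a median of -0.78, and 6 were lower and 1 higher at day 3. Rpl22l1 (-1.09, adjusted p 0.0052) was among those lower at day 2. Rps27l, a target of p53 and paralogue of Rps27, was the one higher at day 3 (0.68, adjusted p 0.0273), with group means of 619 TPM in Normal, 776 at IR day 1, 851 at day 2, 976 at day 3 and 623 at day 5. At day 5 Rpl7l1 was higher (0.98).

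Translation factors and other TOP mRNAs (23 tested) had 15 lower and 0 higher at IR day 2 (median -0.70), 12 lower and 0 higher at day 3 (median -0.67) and 3 higher and 1 lower at day 5. The share lower was above that of all genes at day 2 and below it at day 3. In day 3 +VE against IR day 3, 11 were higher and 0 lower, among them Pabpc1, the poly(A)-binding protein (2.14), Eif4b (1.83) and the elongation factor Eef2 (1.18), a share near the 52.3% of all genes. In 8C against ENR, 5 were higher and 0 lower: Eif3e (0.23), Eif3k (0.41), Eif3m (0.36), Nap1l1 (0.82) and Vim (1.01).

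Ribosome biogenesis genes, which make and assemble the ribosomal RNA and subunits, had 29 of 50 lower at IR day 2 (median -0.80) and 32 lower at day 3 (median -0.91), with 1 higher each. The share lower was above that of all genes at day 2 and below it at day 3. At day 5, 17 were higher and 0 lower (median 0.63). In day 3 +VE against IR day 3, 40 of 50 were higher (median 1.26), beside 4 of 76 members with a median of -0.06. Over the mean of days 33 of 50 were higher (median 0.46). All list values are in the deposited TPM, where 52.3% of all genes were higher at day 3 +VE. That share was 10.1% after the length trend was removed, and the lists are not given on that scale. In 8C against ENR 1 was higher and 3 lower, and in 8C -VE against 8C 4 were higher.

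Regulators of ribosomal protein synthesis (16 tested in crypts) had 1 higher and 1 lower at IR day 1, 5 lower at IR day 2, 12 lower and 1 higher at day 3, and 6 higher at day 5. In day 3 +VE against IR day 3, 12 were higher, with Myc at 2.27, Larp1 at 2.71 and Sp1 at 2.48, 5 were higher at day 2 +VE and 14 over the mean of days, each above the share of all genes. In 8C against ENR, Myc (0.83) and the mTOR target Eif4ebp1 (0.40) were higher, and in ENR +VE against ENR as well (0.70 and 0.39). Of 78 mitochondrial ribosomal protein genes 68 were lower at IR day 2 (median -0.97), 63 lower at day 3 (median -0.90), 15 lower at day 1 and 1 higher at day 5, and 9 higher at day 3 +VE (median 0.21). Their share lower was above that of all genes on days 2 and 3, and their share higher at day 3 +VE was below it. In 8C against ENR 6 were higher and 5 lower. Levels of the lists were read from the same libraries and one scaling, that of the deposited TPM, and no difference between a list and the members was tested.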

How the data were processed

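TPM values were deposited by the authors in one table of 29579 genes, unnormalized beyond TPM itself. Per the study's methods, reads of total RNA were trimmed (Trimmomatic 0.39), mapped to mm10 (STAR 2.7.3a) and quantified (featureCounts). How counts became TPM is not given in the sources used here. Groups came from the labels, and 0 columns belonged to other samples. From the TPM, log2(TPM + 1) was computed, genes averaging 1 TPM or more in the compared libraries were kept (all 76 members passed), and limma 3.58.1 (R 4.3.3; trend and robust, two-sided, Benjamini-Hochberg over all genes tested) was run on pairs of organoid conditions and on the 18 crypt libraries in one fit. A gene was called at an adjusted p under 0.05. The procedure was tested on simulated data in which genes varied independently. That simulation does not cover counts of members that vary together. Fold changes on this scale understate those of low genes.

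Members were named by role, as the extremes of level, and as the 3 largest called rises and falls in TPM and relative to the family median, plus a few, such as Rps27 and Rpl32, that were chosen for their spread after their values were seen. The members and the lists (ribosomal proteins outside the rule, translation factors, ribosome biogenesis, regulators, mitochondrial ribosomal proteins, cell markers) were chosen with earlier results of these data known. Same-numbered libraries were taken as pairs where a comparison had 3 or more pairs and every pair's deviations correlated by over 0.1: 8C -VE with ENR (7 pairs, lowest 0.319) and 8C -V with 8C (6 pairs, lowest 0.104). Alternatives were a 2-fold minimum, a pseudocount of 0.1, no minimum TPM, quantile normalization, removal of mitochondrially encoded genes and removal of a trend with exon length. Others were scaling to the median member, a replicate block, replicate numbers 1 to 3 or 4 to 6 only, and leaving out each library. For the 5 comparisons among conditions of 6 or 7 libraries, each replicate number was left out in both groups. Length was that of all annotated exons of a gene combined, with a median of 1805.5 bases over the members, and not that of the mRNA expressed. The length alternative may therefore place members at too great a length.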

Additional observations from a re-analysis of the deposited data

Results flagged for a closer look

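In groups of 4 to 10 libraries, 4 values of the family or of members named by role stood apart from the rest of their group by Dixon's criterion, of 110 groups of values tested (3.64%, where chance gives about 1 in 20). They were Rpl38 at 1660 TPM in 8C -VE replicate 4, the large over small subunit ratio of 1.77 in 8C -E replicate 7, Rps6 at 2539 TPM in 8C replicate 2 and Rps27a at 1278 TPM in 8C replicate 2. 8C replicate 2 also held the highest members' share of its condition, 14.2%. The high subunit ratio was not particular to 8C -E. Replicate 7 also held the highest ratio of its condition in ENR (1.83), 8C -VE (1.80) and 8C (1.77).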

How the results depend on the processing

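Depth cannot be recovered from TPM, 2 libraries per crypt group limit the calls, and the labels name no batch behind the split by replicate number. The cause of the changes below was not tested.

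Counts of called members moved by over 1.5 times as follows, each with the share of all genes called the same way. With a 2-fold minimum 0 were higher in 8C against ENR (11.9%), 19 lower at IR day 2 (26.2%), 4 lower at day 3 (51.3%), 0 higher at day 5 (10.2%), 1 higher at day 3 +VE (31.6%) and 0 over the mean of days (3.54%). Quantile normalization gave 22 higher in 8C against ENR (20.4%), 1 lower in 8C -VE against 8C (14.6%), 1 higher in ENR +VE against ENR (12.5%), 4 lower at day 1 (2.86%), 4 higher (22.8%) and 4 lower (24.9%) at day 3, 6 higher (15.1%) and 1 lower (11.2%) at day 5, 1 lower at day 3 +VE (10.9%) and 22 lower over the mean of days (6.42%). Without mitochondrially encoded genes 0 were lower at day 1 (2.61%), 31 at day 2 (20.9%), 12 higher (9.3%) and 4 lower (43.4%) at day 3, 2 lower at day 5 (8.45%), 2 higher (39.2%) and 14 lower (1.34%) at day 3 +VE and 54 lower over the mean of days (1.77%). With no minimum TPM 0 were lower at day 1 (4.28%), 0 higher at day 5 (8.6%) and 2 higher at day 3 +VE (26.5%).

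Removing the length trend gave 0 higher in 8C against ENR (21.9%), 2 higher in 8C -VE against 8C (13.6%), 0 lower at day 1 (3.46%), 7 lower at day 2 (17.2%), 26 higher (22.3%) and 0 lower (23.5%) at day 3, 4 higher (12.9%) and 1 lower (12.5%) at day 5, 0 higher (10.1%) and 20 lower (7.55%) at day 3 +VE and 0 higher (5.61%) and 33 lower (3.79%) over the mean of days. Scaling to the median member gave 0 higher in 8C against ENR (15.2%), 0 lower at day 1 (0.805%), 2 higher (17.3%) and 2 lower (3.91%) at day 2, 9 higher (5.82%) and 6 lower (32%) at day 3, 4 higher (11.2%) and 1 lower (4.59%) at day 5, 1 higher at day 2 +VE (20.6%), 1 lower at day 3 +VE (0.0648%) and 7 higher (61.7%) and 1 lower (0.0555%) over the mean of days. Under this scaling Rplp1 (0.47) and Rpl38 (0.36) turned to a rise at day 2, which the scaling gives any member that fell by less than the median one, and without the length trend Rpl5 turned to -0.13 at day 3 +VE.

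With the replicate block 2 were higher in 8C -VE against ENR (12.7%), 22 higher in ENR +VE against ENR (21.7%), 16 lower at day 1 (13.6%), 32 lower at day 3 (71.6%), 1 lower at day 3 +VE (0.231%) and 2 higher (55.7%) and 2 lower (0.185%) over the mean of days. In 8C -V against 8C, the other paired comparison, it left 0 called. In crypts the libraries share only a number. Crossing the numbers of Normal, chosen after seeing the data because the deviations correlated by -0.197 at day 1 and -0.158 at day 2, gave 13 lower at day 1 (15.5%) and 74 at day 2 (49%).

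With numbers 1 to 3 only, 18 were higher in 8C against ENR (22.8%), 19 higher in 8C -VE against ENR (27.3%), 1 lower in 8C -VE against 8C (16.4%) and 9 higher in ENR +VE against ENR (22.8%). With numbers 4 to 6 only, 33 were lower in 8C against ENR (12.9%) and 1 higher in 8C -VE against ENR (15%). There 8 were higher in 8C -VE against 8C (9.55%) and 68 higher in 8C -V against 8C (10.2%). In ENR +VE, numbered 1 to 3, 60 were lower against ENR numbers 4 to 6 (9.54%). Leaving out each replicate number from both groups gave 0 to 1 higher in 8C against ENR and 0 to 1 higher in 8C -V against 8C, and single libraries were not left out there. Leaving out each crypt library gave 0 to 1 lower at day 1, 12 to 72 lower at day 2 (24 to 43.7% of all genes), 6 to 26 lower at day 3 (56.3 to 70.5%), 0 to 1 higher at day 5, 0 to 1 higher at day 1 +VE, 0 to 2 lower at day 2 +VE, 1 to 7 higher (27.7 to 53.8%) and 0 to 1 lower at day 3 +VE, 1 to 3 higher and 0 to 5 lower over the mean of days and 0 to 1 for the difference between days, where a group left with 1 library is assumed to vary like the others.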
